A study of Mus musculus with 321 samples.

Results

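The regions described here are distal stretches of open chromatin that were called in CD4+CD8+ double-positive (DP) thymocytes with Tcf-1, were called in no list from thymocytes without Tcf-1, and were called in no list from fibroblasts. They numbered 5856 among 31628 merged regions of the thymocyte peak lists. Open chromatin had been mapped by ATAC-seq, in which a transposase cuts accessible DNA. The thymocytes were purified by FACS from TCF-1-/- deltaVII mice (KO, 2 libraries) and from mice labelled C56BL/6 (WT, 2 libraries). The fibroblasts were NIH3T3 cells, an NIH/Swiss line at passages 8 to 12, infected with a retrovirus carrying Tcf-1 (Tcf-1 RV, 4 libraries) or with an empty retrovirus (Empty RV, 4 libraries). NIH3T3 cells without Tcf-1 also gave H3K27me3 and H3K9me3 ChIP-seq islands (2 libraries per mark), and a pooled list gave 40562 Tcf-1 ChIP-seq summits in Tcf-1 RV cells. The sources used here do not say what deltaVII means, how old the mice were or whether animals were pooled.

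The members were chosen by their peak calls. The 4 thymocyte lists were merged wherever peaks shared at least 1 bp. A region counted as lost if both WT lists and no KO list held a peak there, which was so for 10032 of the 21952 regions called in both WT lists (45.7%). Of those, 8620 were distal, with a midpoint over 1 kb from either end of every protein-coding gene, and 5856 of the distal ones overlapped no peak of the 8 NIH3T3 lists. The members thus made up 71.3% of the 8217 distal regions that both WT lists and no fibroblast list held, called distal thymocyte-only regions below. The others were 1266 regions kept in both KO lists and 1095 regions called in 1 KO list. A further 2764 lost distal regions were open in a fibroblast list and are not members. Loss in the KO lists, absence from the fibroblast lists, peak width and list shares all come from the calls that chose the members, so they are described without a test.

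Tcf-1, encoded by Tcf7, is an HMG-box DNA-binding protein of the TCF/LEF family that binds CTTTG-containing sites, acts downstream of Wnt and Notch signals and is needed for T cell development. DP thymocytes carry both CD4 and CD8, rearrange the T cell receptor alpha chain and undergo selection. Distal open chromatin often marks enhancers, which raise transcription of genes from a distance. H3K27me3 is the mark of Polycomb repression and H3K9me3 that of heterochromatin.

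A peak list gives the start and end of each peak and nothing on its height, so a region is either called or not, and only the called width can be compared. The lists differed in length: 11171 and 12209 peaks in KO replicates 1 and 2, against 23249 and 30985 peaks in WT replicates 1 and 2. KO replicate 1 stood apart in the check of cell identity. Of 8 DP marker genes, 1 (Ptcra) had a peak within 1 kb of a gene end in KO replicate 1 and 5 (Cd8b1, Rag1, Rag2, Ptcra, Themis) in KO replicate 2, against 7 and 8 in WT replicates 1 and 2. Of 12 fibroblast marker genes, 0 and 0 had such a peak in the KO lists, against 1 and 4 in the WT lists. Cd4, Cd8a and Cd3e had one in neither KO list. For 10 B cell markers the counts were 1 and 1 (KO) against 3 and 3 (WT), for 9 myeloid markers 0 and 0 (KO) against 2 and 2 (WT), and for 13 NK and effector markers 2 and 3 (KO) against 4 and 4 (WT). For 6 thymic epithelial markers they were 2 and 2 (KO) against 1 and 2 (WT), and for 7 erythroid markers 1 and 1 (KO) against 1 and 2 (WT). The part of other cells in the loss was not tested. In the NIH3T3 lists 8 to 10 (Tcf-1 RV) and 4 to 9 (Empty RV) of the 12 fibroblast markers had such a peak. Without KO replicate 1 the rule gave 6162 members, and without WT replicate 1 it gave 10635. The opposite pattern, both KO lists and no WT list, held 23 distal thymocyte-only regions. When each thymocyte list was shortened to its 11171 widest peaks, 751 regions were lost, 779 were kept and the opposite pattern was 28.8% as frequent as loss. Sequencing depth is not given for these lists, so fewer open regions and fewer detected peaks cannot be told apart.

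The few members that lay at an annotated transcript start have a known sequence, and 4 windows at 3 genes of T cells, chosen after their values were seen, are printed as examples of such a region. RefSeq (GRCm38.p6) windows of 300 bases, 250 before to 50 after each start, overlapped 2.99% of members (95% Wilson interval 2.58 to 3.46) and 7.19% of kept regions (91 of 1266, 5.89 to 8.74). The difference was -4.20 points (Newcombe interval -5.81 to -2.82). All intervals given here are for counting error alone, although neighbouring regions may depend on each other. Protein-coding genes accounted for the starts at 76 members and at 49 kept regions. The sequences run 5′ to 3′ on the gene's strand, and capitals mark matches, on either strand, to 9 motifs: TCF/LEF CTTTGAT and CTTTGTT, RUNX TGTGGT, ETS GGAAGT, the E-boxes CAGCTG and CACCTG, AP-1 TGANTCA, the GATA motif AGATAA and the TEAD motif GGAATG. The first comes from a start within Trat1 (chr16:48772013-48772312, minus strand), the gene of an adaptor of the T cell receptor. The second is from Ccr4 (chr9:114496513-114496794, minus strand), a chemokine receptor. The last pair is from Ikzf1 (chr11:11685724-11685974 and chr11:11690049-11690226, plus strand), which encodes Ikaros.
Trat1: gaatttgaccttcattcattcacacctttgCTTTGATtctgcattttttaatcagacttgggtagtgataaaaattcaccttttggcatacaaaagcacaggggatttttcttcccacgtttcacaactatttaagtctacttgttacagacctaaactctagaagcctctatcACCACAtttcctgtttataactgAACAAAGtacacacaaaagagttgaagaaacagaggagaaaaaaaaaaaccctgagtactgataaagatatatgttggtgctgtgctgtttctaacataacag
Ccr4: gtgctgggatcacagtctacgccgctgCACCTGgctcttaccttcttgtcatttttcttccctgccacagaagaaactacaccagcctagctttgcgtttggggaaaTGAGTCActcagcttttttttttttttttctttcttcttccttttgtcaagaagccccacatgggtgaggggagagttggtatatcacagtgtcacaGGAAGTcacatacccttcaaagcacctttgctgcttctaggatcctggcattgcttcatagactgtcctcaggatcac
Ikzf1 first: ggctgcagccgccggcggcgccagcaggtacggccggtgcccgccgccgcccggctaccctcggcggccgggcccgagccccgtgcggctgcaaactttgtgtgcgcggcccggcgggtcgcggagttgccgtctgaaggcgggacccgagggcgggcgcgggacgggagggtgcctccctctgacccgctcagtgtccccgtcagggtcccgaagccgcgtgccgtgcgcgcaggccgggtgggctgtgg
Ikzf1 second: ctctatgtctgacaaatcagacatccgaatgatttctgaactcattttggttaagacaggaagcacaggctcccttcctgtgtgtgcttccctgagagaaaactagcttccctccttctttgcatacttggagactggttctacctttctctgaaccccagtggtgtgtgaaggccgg
The Trat1 window held 1 CTTTGAT, 1 CTTTGTT and 1 RUNX match, all within a member called over 0.295 and 0.367 kb in WT replicates 1 and 2 and in no KO list. The printed part of the Ccr4 window held an ETS, a CACCTG and an AP-1 match, in a member of 0.372 and 0.384 kb in the WT lists. Neither printed part of the Ikzf1 windows held any of the 9 motifs, although both lay in members, of 0.292 and 0.558 kb and of 0.202 and 0.204 kb. The rest of these windows is not covered by that statement.

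Over all start windows at members, here searched over the whole window, the shares with TCF/LEF letters lay between those of the sets they were compared with. CTTTGAT was in 4.06% of windows at members, in 4.67% of windows at kept regions, in 4.69% of 12029 distal windows with no thymocyte peak and in 3.73% of all 32851 windows. CTTTGTT was in 7.11%, 7.48%, 8.01% and 5.85% of the same 4 sets. RUNX letters were in 26.4% of member windows (20.73 to 32.96), 21.5% of kept ones and 16.8% of all. ETS letters were in 29.4% of member windows (23.5 to 36.2), 31.8% of kept ones and 23.8% of all. AP-1 letters were in 6.599% of member windows, 3.74% of kept ones and 7.81% of all. CAGCTG was in 19.8% of member windows, 21.5% of kept ones and 16.3% of all, and CACCTG in 24.4%, 32.7% and 20.2%. GATA letters were in 9.14%, 6.54% and 11.2%, and TEAD letters in 10.7%, 13.1% and 14.7%. In the distal windows with no thymocyte peak the shares were 20.6% for RUNX, 20.9% for ETS and 10.1% for AP-1. In the same windows they were 18.2% for CAGCTG, 20.9% for CACCTG, 15.1% for GATA and 17.5% for TEAD. The median GC content was 52.7% at members, 56.3% at kept regions, 48% in the distal windows with no thymocyte peak and 52.7% over all windows. These windows cover 2.99% of the members, and no sequence of the others was searched.

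A pair of microRNA hairpins lay in members. The hairpin of miR-155, a microRNA of lymphocyte activation, is at chr16:84714140-84714204 (plus strand), in a member that spans chr16:84714018-84714395. That region was called over 0.235 and 0.378 kb in the WT lists and in no KO list; the nearest KO peak was 10487 bp away and the nearest fibroblast peak 1788 bp away. The hairpin of miR-7007 is at chr3:20222290-20222359 (minus strand), in a member of 0.355 and 0.329 kb in the WT lists. The mature RNAs are given with the seed, bases 2 to 8, in capitals; no seed is shared among the 4.
miR-155-5p: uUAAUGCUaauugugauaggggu
miR-155-3p: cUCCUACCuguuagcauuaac
miR-7007-5p: uCAGAAGAggcaguggaggagau
miR-7007-3p: cCCAUCCAcguuucuucu

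The members were narrow. Their merged width had a median of 0.339 kb (quartiles 0.281 and 0.425, range 0.200 to 1.525), against 0.516 kb for the kept regions. It was 0.426 kb for regions called in 1 KO list. The lost distal regions open in a fibroblast list were narrower still, at 0.312 kb, so narrow width was not particular to the members. In WT replicate 1 the median was 0.267 kb for members and 0.437 kb for kept regions, and in WT replicate 2 it was 0.326 kb for members and 0.504 kb for kept regions. A member was wider in WT replicate 2, the longer list, in 81.9% of cases. By the mean width of the 2 WT peaks, 1379 of 1425 regions of 200 to 250 bp were members (96.8%). The share was 89.1% above that and up to 300 bp, then 77.5% up to 350 bp, 62.1% up to 400 bp, 51.9% up to 500 bp and 37.6% up to 600 bp. Above 600 bp it was 27.02% (of 470 regions, 23.2 to 31.2). Narrow peaks were therefore nearly all absent from both KO lists, and some of the broadest were absent too. The 5 widest members, named by their nearest gene, were at Med12l (1.301 and 1.525 kb in WT replicates 1 and 2), a Mediator subunit gene, at the olfactory receptor Olfr726 (1.013 and 1.099 kb), at the kinetochore gene Ndc80 (0.851 and 1.000 kb), 556309 bp from the zinc finger gene Zfp608 (0.777 and 1.060 kb) and at Cd180 (0.802 and 1.023 kb), a Toll-like receptor homologue of B cells. What part peak strength had in the loss was not tested, because the lists hold no height.

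**Figure D1:**
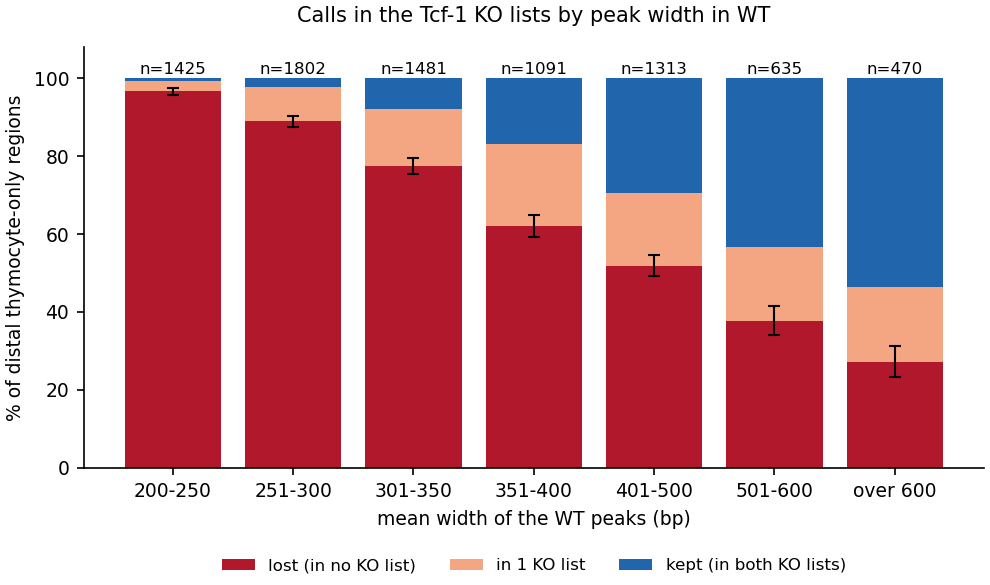
Share of distal thymocyte-only regions (y, percent) in no KO list, in 1 KO list and in both KO lists, by the mean width of the WT peaks (x, bp). The share in no KO list is 96.8% in the narrowest class and 27.02% in the broadest.

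Genes of the T cell receptor complex had 16 members among 21 distal thymocyte-only regions (76.2%, 54.9 to 89.4), beside 4832 of 6815 (70.9%) over all genes. Each region was assigned to the nearest gene within 50 kb. Cd247, the zeta signalling chain, had 7 members among its 11 WT regions of every kind, all 7 inside the gene. These ran from chr1:165803151-165803428 (0.237 and 0.278 kb in WT replicates 1 and 2) to chr1:165849035-165849367 (0.297 and 0.333 kb), and 5 of them stood within 21.1 kb. The kept region of Cd247 was broader, at 0.454 and 0.645 kb in the WT lists. Trat1 had 5 members among 6 WT regions, of 0.214 to 0.295 kb in WT replicate 1 and 0.261 to 0.380 kb in WT replicate 2, and its kept region measured 0.479 and 0.518 kb. The receptor beta constant genes Trbc1 and Trbc2 had 2 members each, of 2 and 3 WT regions. Cd3d, Cd3e and Cd3g, which encode the CD3 chains, Ptcra, the pre-receptor alpha chain, and Trac had no member. The only WT region of Cd3d and that of Cd3e were lost but lay at a gene end. Those of Cd3g, Ptcra and Trac were kept.

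Genes of T cell receptor signalling had 25 members among 35 such regions (71.4%, 54.9 to 83.7), again beside 70.9% over all genes. Fyn, a SRC family kinase, had 6 members among 9 WT regions, all within the gene. The broadest Fyn member was chr10:39514802-39515307, with 0.506 and 0.484 kb in the WT lists. Prkcq, protein kinase C theta, had 5 of 7, and Plcg1, phospholipase C gamma, 4 of 5. The kinase genes Lck and Zap70 and the adaptor genes Lat and Themis had none. Of the 2 WT regions of Lck, 1 was lost at a gene end and 1 was kept. The only WT region of Zap70 and that of Themis were called in 1 KO list.

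Among recombination and coreceptor genes, 7 of 15 regions were members (46.7%, 24.8 to 69.9), beside 70.9% over all genes. Arpp21, a thymocyte phosphoprotein, had 3 members among 5 WT regions. Cd8a, a CD8 coreceptor chain, had members at chr6:71360831-71361096 (0.266 and 0.255 kb in WT replicates 1 and 2) and chr6:71371222-71371467 (0.200 and 0.200 kb). The neighbouring Cd8b1, the other chain, had chr6:71353605-71354030 (0.411 and 0.364 kb), and Dntt, the terminal transferase, had chr19:41022298-41022625 (0.328 and 0.295 kb). Each of these 4 lay in H3K27me3 islands of both fibroblast replicates. Cd4 and the recombinase genes Rag1 and Rag2 had no member.

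The T lineage transcription factors had the most members of the lists, 88, which was 75.2% of their distal thymocyte-only regions (66.7 to 82.2), at 29 of 36 genes with a WT region. At least 1 member stood near 27.5% of all 11217 genes with a region called in both WT lists (3086 genes). Those 11217 genes had 20024 WT regions, fewer per gene, so the counts of genes are not read against each other. Tox, an HMG-box factor of CD4 lineage development, had 8 members among 9 WT regions. The Tox members were called over 0.264 to 0.409 kb in WT replicate 1 and 0.272 to 0.487 kb in WT replicate 2, and 4 of them lay within 8.03 kb inside the gene (chr4:6896068-6904100). The other Tox region, at the gene's end, was kept and measured 1.042 and 1.040 kb. Foxp1, a forkhead factor of quiescence, had 8 of 11. Ikzf1 had 7 of 8, from 27625 bp outside the gene to 40548 bp inside it, counted from its nearer end, and its kept region measured 0.780 and 0.797 kb. Runx1, a core T cell factor, had 7 of 12, of 0.200 to 0.343 kb in WT replicate 1. Fli1 (6 of 6), the Tcf-1 homologue Lef1 (5 of 7), the commitment factor Bcl11b (4 of 6) and Ets1 (2 of 10, with 5 more in 1 KO list) are named after their values were seen. Tcf7 itself, also named so, had 3 members among 5 WT regions; the other 2 were kept. The Tcf7 members were chr11:52268627-52268890 (0.228 and 0.264 kb), chr11:52309574-52309860 (0.200 and 0.287 kb) and chr11:52318609-52318842 (0.202 and 0.231 kb). The sources used here do not say whether the KO allele removes any of this DNA. Id3, an inhibitor of E proteins, had no member.

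**Figure D2:**
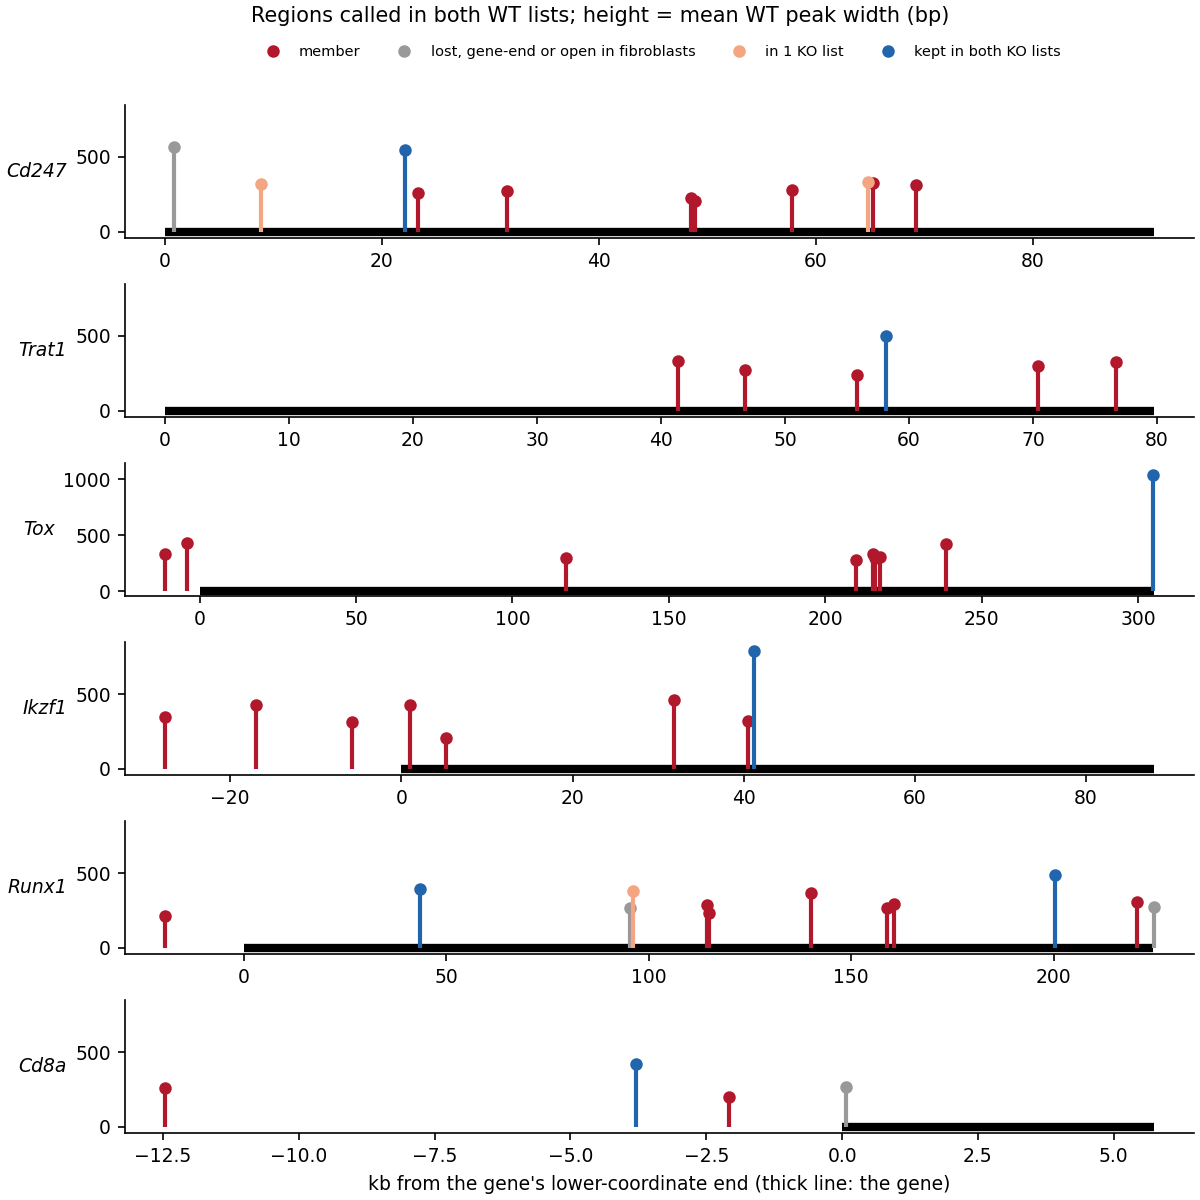
Regions called in both WT lists at 6 genes, by distance from the gene's lower-coordinate end (x, kb); the height of each line is the mean WT peak width (y, bp) and the colour the call in the KO lists. At Tox, Ikzf1 and Trat1 the single kept region is the broadest, at 1.042 and 1.040, 0.780 and 0.797, and 0.479 and 0.518 kb in the WT lists.

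Receptors on the cell surface had 37 members among 54 regions (68.5%, 55.3 to 79.3), beside 70.9% over all genes. These members stood at 20 of 26 genes. Cxcr4, the receptor for CXCL12, had 4 members among 7 WT regions, of 0.218 to 0.262 kb in WT replicate 1 and 0.293 to 0.315 kb in WT replicate 2. The integrin gene Itga4 and Slamf6 had 3 of 4 each, and Il2ra, the interleukin 2 receptor alpha chain, 3 of 5. Il7r, Ccr9 and S1pr1, for the interleukin 7 receptor, a thymic homing receptor and an exit receptor, had none. Each still had 1 lost region that the rule left out, at a gene end for Il7r and Ccr9 and open in fibroblasts for S1pr1. Of the 22 gene-end WT regions of this list, 15 were absent from both KO lists, beside 1412 of 8712 over all genes. The same count was 3 of 5 for the receptor complex, 1 of 13 for receptor signalling, 1 of 4 for recombination and coreceptors, 6 of 26 for the transcription factors, 2 of 10 for Wnt and TCF targets, 2 of 5 for apoptosis and survival, and 0 of 9 for housekeeping genes.

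Genes of the Wnt pathway and known TCF targets had 12 members among 17 regions (70.6%, 46.9 to 86.7). That was close to the 70.9% over all genes. Cd44, an adhesion receptor, had 3 of 5, the corepressor Tle3 2 of 3, and Rnf43, which removes Wnt receptors, 1 of 1. Axin2, a feedback inhibitor, had 1 of 2, chr11:108910781-108911334, with 0.356 and 0.554 kb in WT replicates 1 and 2. Apoptosis and survival genes had 6 of 13 (46.2%, 23.2 to 70.9), beside the same 70.9% over all genes. Bcl2l1, the survival gene of DP thymocytes, had 3 of 7 with 4 kept, Cdkn1a and Pmaip1 had 1 of 1 and 1 of 2, and Mcl1 had none. Of the 3 WT regions of Mcl1, 1 was lost but open in fibroblasts and 2 were called in 1 KO list.

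Lists of other cell types were small here. Of distal thymocyte-only regions, 4 of 5 were members at B cell genes, 3 of 5 at NK and effector genes, 3 of 5 at erythroid genes, 2 of 3 at fibroblast genes, 1 of 1 at thymic epithelial genes and 0 of 4 at myeloid genes. At housekeeping genes it was 2 of 4. These lists are too short for a share to be read.

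**Figure D3:**
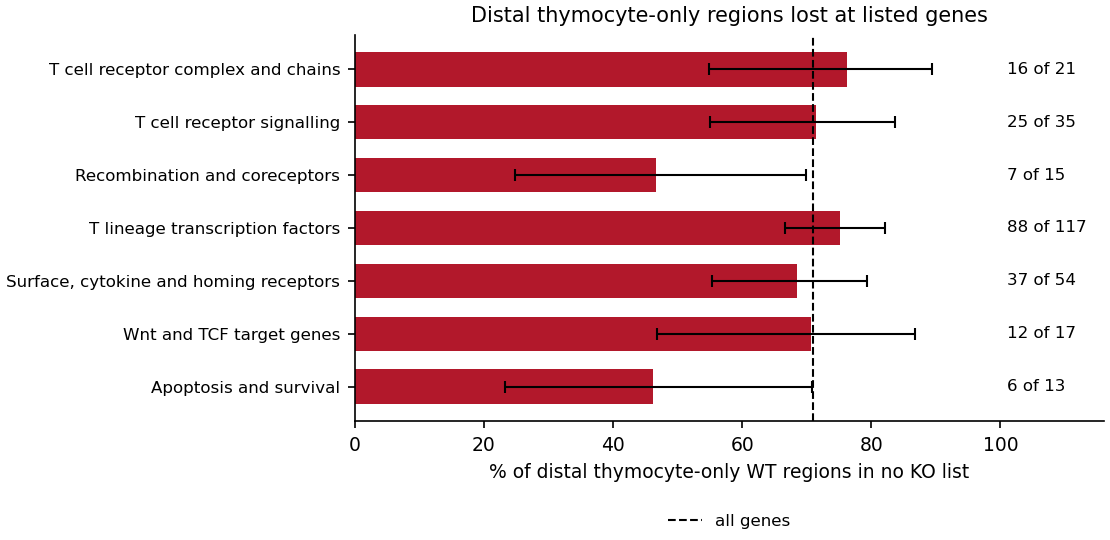
Share of distal thymocyte-only WT regions in no KO list (x, percent) at 7 gene lists (y), with 95% Wilson intervals and counts; the dashed line is the share over all genes, 70.9%. Shares run from 46.2% for the survival list and 46.7% for the coreceptor list, of 13 and 15 regions, to 76.2% for the receptor complex; no list was tested.

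The 3086 genes mostly had 1 member (2105 genes), 577 had 2, 359 had 3 to 5 and 45 had 6 or more. Of genes with a member, 1560 also had a gene-end region in both WT lists. Of these genes, 341 had lost a gene-end region and 1268 had one kept in both KO lists. Over all genes, 1412 of 8712 gene-end regions were lost and 6388 were kept. Those are counts of regions and not of genes, so they are not read against each other. The 13 genes with 8 or more members spanned 87.5 to 1302 kb. Wwox, an oxidoreductase gene of a fragile site, had 12 members among 20 WT regions, 10 of them inside the gene of 913 kb, and 10 of the 12 lay in fibroblast H3K9me3 islands. Nfia, a nuclear factor I gene, had 11 of 19, and Sgms1, sphingomyelin synthase, 10 of 15. Prkch, protein kinase C eta, had 9 of 11, and 8 of these 9 lay in H3K27me3 islands. Sdccag8, a centrosomal protein gene, had 9 of 11, and the phosphodiesterase Pde4d 9 of 21, all 9 inside its 1302 kb. Pard3, a polarity gene, and Tox had 8 of 9, Slc9a9 8 of 10, Arhgap26 and Foxp1 8 of 11, Poc1b 8 of 12, Pik3r1 8 of 13, and Akap6 and Ikzf1 7 of 8. Inpp4b also had 7 of 8, and further genes had 7 members, so the last places among the 15 named rest on tie-breaks by share and symbol.

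Most members stood alone. Joined at gaps of up to 0.0125 Mb, they formed 5151 runs, of which 4569 were single members, and 1287 members were in runs of 2 or more. The 23 runs of 4 or more held 99 members. The longest by count had 6 members in 29.1 kb at Nfkb1, an NF-kappaB subunit gene. Runs are named by the nearest gene in the gene table at any distance, without the 50 kb limit, so a run need not lie at that gene. Runs of 5 had as nearest gene Prkch (18.6 kb, all in H3K27me3), Cd247 (21.1 kb), the kinase gene Tec (32.4 kb) and Ikzf1 (33.2 kb). A further run of 5, at chr12:115790528-115821069 (30.5 kb, all in H3K9me3), had Zfp386 as its nearest gene. None of these 6 runs held a kept region.

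Tcf-1 summits from fibroblasts lay in similar shares of the members and of the kept regions. A summit lay in 2.203% of the 5856 members (1.86 to 2.61) and in 2.29% of kept regions (29 of 1266, 1.5996 to 3.27). The difference of -0.09 points (-1.13 to 0.71) included 0. Among the 2764 lost distal regions open in fibroblasts the share was 13.7% (380 regions), and over all regions called in both WT lists it was 11.4%. The members and the kept regions were selected on having no peak in any fibroblast list, those of Tcf-1 RV included. Regions with Tcf-1 that were open in those lists were thus taken out beforehand. The low shares of members and kept regions are therefore not read as a result. Nor are they read against the 13.7%, in regions selected on a fibroblast peak, or the 11.4%. With Tcf-1 RV replicate 1 left out of the rule, 2.55% of members had a summit. In a member with a summit, the nearest summit was a median of 71 bp from the midpoint. The authors' summit scores, of unstated scale, reached a median of 14.99 in these members, against 10.85 in kept regions and 17.01 over all summits. The highest, by the nearest gene at up to 132263 bp, were at Krr1 (74.6), Akap13 (73.5), Dnm3 (71.3), Emx2 (67.3) and Ankrd55 (66.96). Among listed genes, Cdkn1a had 40.7, Fyn 14.5, Rnf43 12.2, Bach2 9.52, Cd53 8.30 and Ctla4 6.58. The summits come from fibroblasts, and Tcf-1 binding in thymocytes was not analysed here.

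Fibroblast H3K27me3 covered a smaller share of members than of kept regions. The midpoint lay in islands of both replicates for 762 members (13.01%, 12.2 to 13.9) and for 220 kept regions (17.4%), a difference of -4.37 points (-6.71 to -2.19). Taken alone, replicates 1 and 2 gave 16.96% and 16.001% for members and 21.7% and 21.5% for kept regions, so the order was the same in each. Over all regions called in both WT lists it was 7.80%. Regions called in 1 KO list had 13.8%, from which the members differed by -0.78 points (-3.10 to 1.33). Lost distal regions open in fibroblasts, selected on a fibroblast peak, had 3.80%. The difference of members from kept regions was -3.43 points at mean WT widths up to 300 bp (-16.0 to 4.33, with 50 kept regions). It was -3.52 from there up to 400 bp (-8.40 to 0.63), -5.60 up to 500 bp (-10.4 to -1.09) and -2.49 above 500 bp (-7.18 to 2.43). Only the interval of the class up to 500 bp left out 0. By distance to the nearest gene end the difference was 0.65 points from 1 to 5 kb and -6.68 from 5 to 20 kb (-11.2 to -2.58). It was -5.74 from 20 to 50 kb (-10.6 to -1.52) and -2.68 farther away (-6.62 to 0.60). Within 5 kb of gene ends the order was thus the other way, with an interval of -6.18 to 6.32. The authors' fold of ChIP over control for the islands at members had a median of 2.24 and 2.21 in the 2 replicates, against 2.22 and 2.17 at kept regions.

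H3K9me3 showed a smaller gap. The members' share was 6.49% (380 regions), beside 6.48% of regions called in 1 KO list. The background was 4.32%, and the share of kept regions was 8.06%. Replicates 1 and 2 alone gave 8.13% and 8.93% for members and 10.03% and 10.98% for kept regions. The difference of members from kept regions, -1.57 points, had an interval of -3.30 to -0.04. By mean WT width it was -3.73 points up to 300 bp (-15.1 to 1.99) and -1.40 up to 400 bp (-5.16 to 1.44). It was 1.85 up to 500 bp (-1.47 to 4.83) and -4.02 above 500 bp (-7.41 to -0.43). The sign turned in the class up to 500 bp, but the interval there included 0. By distance the difference was -5.24 points from 1 to 5 kb (-10.8 to -1.25) and -4.43 from 5 to 20 kb (-7.75 to -1.75). It was 0.89 from 20 to 50 kb (-2.28 to 3.22) and 0.99 beyond (-2.55 to 3.83). A total of 21 members (0.359%) lay in islands of both marks.

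**Figure D4:**
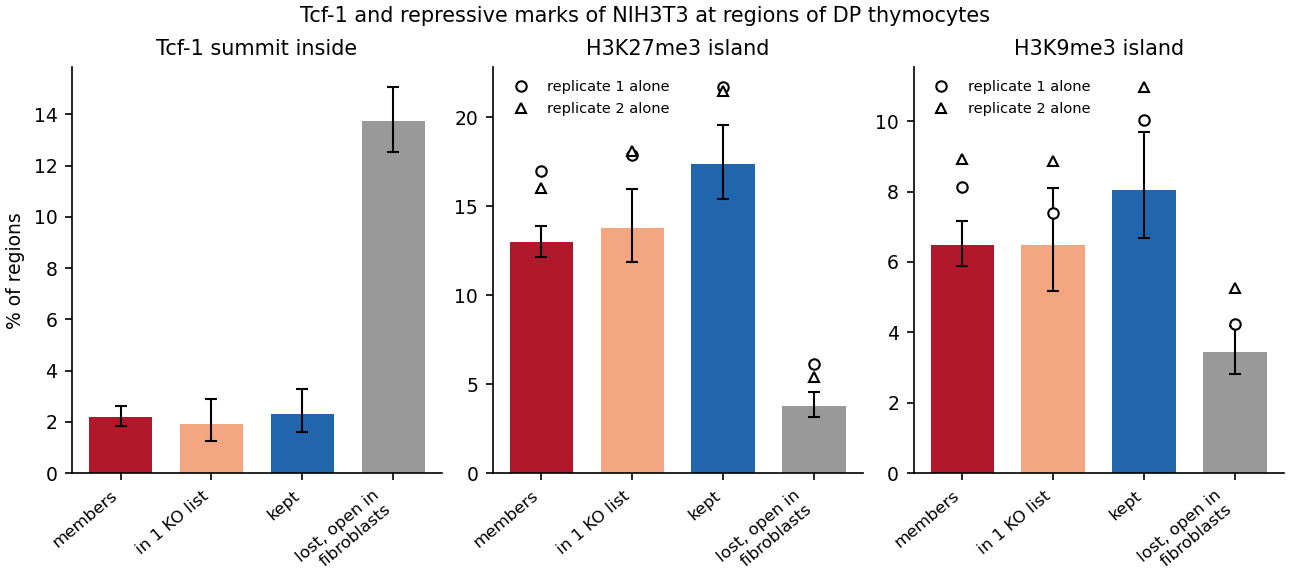
Share of regions (y, percent; a separate scale in each panel) with a Tcf-1 summit, in H3K27me3 islands and in H3K9me3 islands of NIH3T3 cells, for the members, the regions in 1 KO list, the kept regions and the lost regions open in fibroblasts. Bars are the share in islands of both replicates with 95% Wilson intervals, and open symbols the replicates alone; H3K27me3 is at 13.01% of members and 17.4% of kept regions.

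Fibroblast peaks beside the members were counted as the fibroblast ATAC-seq readout of their surroundings, since overlap was barred by the rule. The same NIH3T3 lists had chosen the members and the kept regions. A region that a peak of either virus overlapped was thus taken out before the viruses were compared. The test below therefore cannot show whether Tcf-1 opened such regions, and no conclusion is drawn from it. The share of a library's peaks whose nearest edge lay within 5 kb of a member was 3.79%, 3.81%, 3.74% and 3.92% in Tcf-1 RV replicates 1 to 4, and 3.55%, 3.67%, 3.80% and 3.86% in Empty RV replicates 1 to 4. The groups overlapped. The means were 3.82 ± 0.0740% in Tcf-1 RV and 3.72 ± 0.136% in Empty RV (SD, n = 4 each), and they differed by 0.0943 points (two-sided exact permutation test, p = 0.286, adjusted over 2 region classes p = 0.286, where 4 against 4 libraries can reach 0.0286). The difference was 0.191 points within replicates 1 and 2, which carry a day 2 tag, and -0.00182 within replicates 3 and 4, which carry a day 4 tag. At kept regions the means were 0.772 ± 0.0231% in Tcf-1 RV and 0.754 ± 0.0187% in Empty RV (SD, n = 4 each), with the same exact p of 0.286. Seen from the members, 26.5%, 24.3%, 20.8% and 33.9% had a Tcf-1 RV peak within 5 kb, and 13.2%, 19.4%, 25.97% and 31.5% had an Empty RV peak. Within each virus these shares had the order of the list lengths, 47623, 43527, 36583 and 62639 peaks in Tcf-1 RV and 22778, 34601, 46819 and 58026 peaks in Empty RV.

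**Figure D5:**
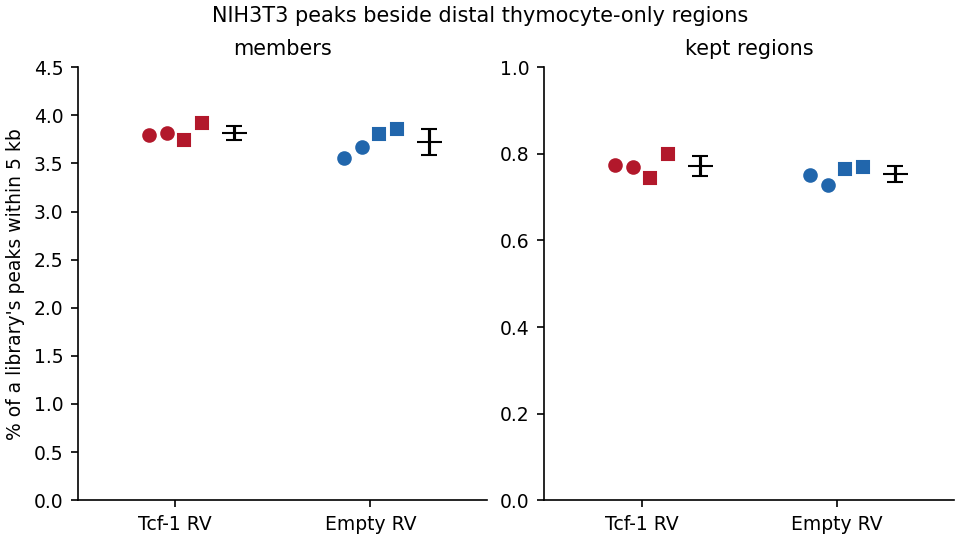
Share of each NIH3T3 library's peaks within 5 kb of a member or of a kept region (y, percent), by virus (x); points are libraries, circles with a day 2 and squares with a day 4 tag, and bars the mean and SD. At the members the 4 Tcf-1 RV libraries lie between 3.74% and 3.92% and the 4 Empty RV libraries between 3.55% and 3.86%.

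Apart from the annotated starts given above, where 2.99% of members and 7.19% of kept regions lay, the shares by position were close. Members were inside a protein-coding gene in 54.4% of cases, against 53.3% of kept regions (difference 1.12 points, -1.90 to 4.16). Within 10 kb of a gene end lay 26.6% of members and 25.8% of kept regions, and over 50 kb from any gene 17.5% and 17.5%. The median distance from a member was 24436 bp to the nearest gene end, 29762 bp to the nearest KO peak and 6926.5 bp to the nearest fibroblast peak. A region kept in all 4 thymocyte lists stood within 10 kb of 13.5% of members, and another such region within 10 kb of 13.3% of the kept ones.

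The rule's limits bear on few regions. A total of 32 members lay 1 to 1.1 kb from a gene end, such as those at Slc22a29 (1004 bp) and Nhsl1 (1012 bp), and 38 lost regions lay 0.9 to 1 kb from one, such as those at Fuca2 (999 bp) and Actbl2 (1000 bp). A fibroblast peak was within 100 bp of 70 members, at 3 bp from the one near Plin2 and 6 bp from the one in Itgae, and within 1 kb of 632. Another 53 lost distal regions shared 1 to 100 bp with a fibroblast peak and are not members. A KO peak was within 100 bp of 7 members and within 1 kb of 2.70% of members.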

How the data were processed

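Per the submitters' processing notes, the tools were MACS2, Picard, Bowtie2 2.2.9, STAR 2.5, FastQC and Trim Galore and the builds GRCm38, mm10 and GRCh37; the sources used here do not tie them to files. Coordinates are GRCm38. The deposited ATAC-seq lists hold peak starts and ends only. The deposited summit list is pooled and gives a score per summit. The deposited SICER islands, called per library, give read counts of ChIP and control, their ratio (fold), a p-value and its adjusted value. No ATAC-seq read depth is given. Of 321 samples, 16 had a file of their own; the others were not analysed here, and 293 peaks on unplaced sequences were left out.

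Peaks were merged at 1 bp overlap and regions assigned to the nearest of 21890 genes within 50 kb. A mark covered a region if its midpoint lay in islands of both replicates; a summit had to lie inside. Shares carry 95% Wilson intervals and differences Newcombe intervals. Libraries were compared with two-sided exact permutation tests, adjusted by Benjamini-Hochberg (Python 3.11.15, numpy 2.4.6, pandas 2.3.3, scipy 1.17.1, matplotlib 3.10.9), and the code was tested on simulated data. The labels do not state separate animals or cultures for replicates, so p-values measure only the spread between these libraries, which may be technical.

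The members and the gene lists were chosen with earlier results of these data known. Named in full were up to 4 genes per list with most members, the 15 genes with most members, the 5 widest members, the 5 highest summit scores, the densest runs and regions next to the limits. Some listed genes are not reported here by name. The sample titles do not say whether same-numbered NIH3T3 libraries of the arms are pairs. Deviations of same-numbered libraries correlated at 0.187, 0.189, 0.125 and 0.260 over regions. Those of Tcf-1 RV replicate 1 and Empty RV replicate 2, with the same day tag, correlated at 0.194. Pairing by replicate number, used for the replicate block below, is therefore an assumption. Day tags come from names in the deposited data and served only as batches. Motif shares over all regions were planned but could not be run without a genome; the search in RefSeq start windows was chosen after seeing the data.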

Additional observations from a re-analysis of the deposited data

How the results depend on the processing

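Leaving out 1 library at a time gave 5856 to 10635 members, the highest without WT replicate 1, 1.83% to 2.55% with a summit, 12.9% to 16.96% in H3K27me3, 6.41% to 8.93% in H3K9me3, 3086 to 4591 genes with a member, and a flanking difference between Tcf-1 RV and Empty RV of 0.0379 to 0.139 points. With thymocyte lists of equal length there were 751 members, 3.33% with a summit, 14.1% in H3K27me3, 8.39% in H3K9me3 and 538 genes; 703 of the 751 overlapped a member. Of 52 named genes, 30 then had no member left and 50 moved by over 1.5 times. Islands of fold 2 or more covered 8.04% (H3K27me3) and 3.52% (H3K9me3) of members. A summit within 500 bp was found for 4.25%, and 0.888% held one from the upper 50% by score. With the replicate block the flanking difference stayed 0.0943 points (exact sign-flip p = 0.375, where 0.125 is the smallest possible), with flanks of 1 and 20 kb it was 0.0147 and 0.054 points (exact p = 0.714 and 0.686), and with NIH3T3 lists of equal length 0.0593 (exact p = 0.171). Libraries of the same tag but another number correlated at 0.0648 to 0.194, and those of different tags negatively. The member count was 5698 with no KO peak within 1 kb, 5224 with no fibroblast peak within 1 kb, 5673 with 50% cover by each WT peak and 5038 over 5 kb from gene ends; 2512 genes had a member within 10 kb. The cause of each shift was not tested. With no read depth, an absent peak cannot be told from one too weak to call.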

Other observations

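On the X chromosome 84.9% of distal thymocyte-only regions were members (78.3 to 89.7), against 71.01% on the autosomes, where single chromosomes ran from 66.1% (chromosome 11) to 75.5% (chromosome 12). Gene-end regions gave the same order, with 28.3% lost on X and 15.8% on the autosomes, while distal regions open in fibroblasts gave 52.3% on X and 55.1% on the autosomes. The X held 2.17% and 2.31% of the peaks in KO replicates 1 and 2, against 2.49% and 2.54% in WT replicates 1 and 2. The Y held 4 and 6 peaks in the KO lists and 2 and 4 in the WT lists. All of these values rest on the calls that chose the members, and the difference was not tested.

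Of 1005 microRNA hairpins in the RefSeq table, 23 lay within 2 kb of a member. The hairpins near kept regions were not counted, so the 23 is not read as a result. Those of miR-148a and miR-142, microRNAs of lymphocytes and blood cells, were 642 bp and 1885 bp away. Both are named after their values were seen, and some of the other hairpins lay nearer to a member. The nearest KO peak was 161250 bp from the member near miR-148a and 503 bp from the member near miR-142.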
